A study of Mus musculus with 12 samples.

Results

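Aif1, Cx3cr1, Csf1r, P2ry12, Tmem119, C1qa, C1qb, C1qc and Trem2 are 9 genes used to recognise microglia, and they were followed here in sorted cells that are not microglia by design. They were taken by name, through the Ensembl identifiers of the deposited table, and make up 9 of its 47069 distinct identifiers. All 9 were present in the table, and 7 of them passed the filter on low values that preceded the tests. The cells were Pdgfra/GFP+ cells isolated by fluorescence from Pdgfra-H2BGFP mice, a knock-in line in which a nuclear green fluorescent protein is made from the Pdgfra locus, the receptor gene that marks oligodendrocyte precursor cells (OPCs). Total RNA was sequenced from 12 libraries in 4 groups of 3, with each region, brain or spinal cord, sampled at an embryonic stage (E13.5) and again at postnatal day 7 (P7). The study set out to compare Pdgfra/GFP+ cells across ages and regions of the central nervous system.

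All 4 groups carried the same reporter allele on a C57BL/6NJ background, without another treatment or mutation. The mice were heterozygous for this knock-in at Pdgfra, because the study states that homozygous embryos die before birth. Per the methods of the study the brain tissue was forebrain, mice of both sexes were used, and the sorted cells of several animals were pooled for each library. Pipettes alone were used to dissociate the embryos and papain to dissociate the pups, so age and dissociation cannot be told apart. The fluorescent protein lasts into early oligodendrocyte differentiation, so a GFP+ cell need not still express Pdgfra, and mesenchymal cells of the meninges also use the Pdgfra locus. The labelled cell type could be checked against its markers. Each of 6 OPC markers, Pdgfra, Cspg4, Olig1, Olig2, Sox10 and Gpr17, was called higher at P7 than at E13.5 in both regions, and their summed level was between 8241 and 8673 CPM (read counts scaled to the size of the library) in the P7 libraries against 512 to 1406 CPM at E13.5. At E13.5 the 6 pericyte and leptomeningeal markers summed to more, 2461 to 3532 CPM in brain and 5108 to 5546 CPM in spinal cord. The 5 oligodendrocyte markers summed to 17314 to 23238 CPM in P7 spinal cord against 1378 to 3497 CPM in P7 brain. All 5 were called lower in brain than in spinal cord at P7. The part of these differences in cell make-up in the comparisons below was not tested.

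Microglia are the resident macrophages of the central nervous system. They descend from yolk sac progenitors, enter the neural tube during embryonic life and multiply and mature after birth. They depend on the colony stimulating factor 1 receptor for survival, and they sense nucleotides, fractalkine and lipids through surface receptors. They are also the main source of the complement subcomponent C1q in the brain, which tags synapses and debris for removal. Mature microglia are told from other macrophages by genes such as P2ry12 and Tmem119, which are acquired as they mature. In RNA from a pool of sorted cells, fewer cells of a type and less RNA per cell cannot be told apart.

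All 9 members are protein-coding genes. The 3 C1q genes lie next to each other on the minus strand of chromosome 4, C1qb at chr4:136880129-136886187, C1qc at chr4:136889804-136893065 and C1qa at chr4:136895917-136898803 (GRCm38, the build called mm10, with GENCODE M21 positions). Trem2 lies at chr17:48346401-48354147 on the plus strand, and Aif1 at chr17:35170991-35176068 on the minus strand. Tmem119 is at chr5:113793729-113800516, P2ry12 at chr3:59216272-59262871 and Cx3cr1 at chr9:119901616-120069879, each on the minus strand. P2ry12 sits wholly inside Med12l, a Mediator kinase module gene on the opposite strand, with 9 exonic bases in common, and Csf1r shares 873 exonic bases with Hmgxb3 on the opposite strand. The libraries kept strand, but whether the counting used it is not given in the sources used here, so some reads of P2ry12 and Csf1r may come from these partners, whose mean levels were 73.2 and 69.1 CPM.

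The start regions of the genes were read because PU.1, the transcription factor of the myeloid lineage, binds a purine-rich core written GAGGAAG, or CTTCCTC on the other strand. RefSeq start regions (GRCm38.p6) were at hand for 6 of the 9 members, Aif1, C1qb, C1qc, Cx3cr1, P2ry12 and Trem2. In the 250 bases before the start, the letters were found in 2 of the 6, C1qc and Trem2, both times on the reverse strand, against 10.6% of 32851 start regions of the same length. The first letter of the match lay 194 bases before the RefSeq start of C1qc and 41 bases before that of Trem2. The 2 runs that hold the match are printed with it in capitals, beside the run of C1qb, the neighbour of C1qc that has none. For C1qc, the 99 bases that precede its first annotated exon are given.
C1qc, chr4:136893066-136893164, minus strand: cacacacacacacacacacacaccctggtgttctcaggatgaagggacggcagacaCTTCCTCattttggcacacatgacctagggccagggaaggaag
Trem2, chr17:48346151-48346400, plus strand: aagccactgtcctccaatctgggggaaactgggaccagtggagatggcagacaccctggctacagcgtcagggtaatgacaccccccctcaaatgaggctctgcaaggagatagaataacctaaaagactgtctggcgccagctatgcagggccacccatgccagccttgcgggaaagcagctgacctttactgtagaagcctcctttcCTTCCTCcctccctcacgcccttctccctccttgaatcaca
C1qb, chr4:136886201-136886450, minus strand: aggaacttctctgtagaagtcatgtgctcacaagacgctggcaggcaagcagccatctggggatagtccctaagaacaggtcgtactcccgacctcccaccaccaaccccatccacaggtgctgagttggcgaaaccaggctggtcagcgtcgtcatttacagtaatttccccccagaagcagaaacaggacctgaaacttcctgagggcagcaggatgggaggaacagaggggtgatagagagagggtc
These matches describe the letters only and are not measured binding sites.

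The libraries held 12566345 to 38790312 recovered reads. E13.5 spinal cord replicate 3 stood apart, with 40.9% of its reads in protein-coding genes against 82.4% to 91.1% in the other 11, and 3 reads in it were worth 0.506 CPM against at most 0.179 CPM elsewhere. P7 replicates 1 and 2 were much closer to each other than to replicate 3. Over genes with 500 or more reads in each library of a group, their log2 ratio had an SD of 0.0728 in each region, against 0.177 to 0.217 for pairs with replicate 3. They still differed by more than counting error, with a chi-square of 3.65 per degree of freedom in brain and 5.86 in spinal cord, and were kept as separate samples. The p-values below measure the spread between these pools.

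In brain, 6 of the 7 tested members rose from E13.5 to P7, namely Csf1r, Cx3cr1, P2ry12, C1qa, C1qb and C1qc, and the remaining one, Tmem119, fell. Genes were called at an adjusted p under 0.05 (limma) together with a change of over 2-fold, and by that rule 11% of the 18319 tested genes rose and 16.7% fell in brain. In spinal cord the pattern was not found again, with P2ry12 called higher at P7, Tmem119 called lower and 5 members not called, against 16.9% of all tested genes called higher and 18.2% called lower. Between regions, Csf1r and Tmem119 were lower in brain than in spinal cord at E13.5, where 5.17% of all tested genes were called lower and 3.53% higher. At P7 the 6 genes that had risen in brain were all called higher in brain than in spinal cord, against 2.27% of tested genes called higher and 4.35% called lower. Tmem119 was the exception there too, with a difference of -0.69 on the log2 scale that missed the threshold (adjusted p = 0.0579). The region difference itself shifted upwards with age for Csf1r, Cx3cr1, C1qa, C1qb and C1qc, 5 of the 7, against 6.66% of all tested genes called higher and 9.66% called lower.

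The median difference of the 7 tested members was 1.88 on the log2 scale for age in brain and -0.68 for age in spinal cord, beside medians over all tested genes of -0.19 and 0.12. For region it was -0.66 at E13.5 and 1.68 at P7, beside 0.05 and -0.19 over all tested genes. Each of the 7 had at least 0.7 CPM in all 3 libraries of at least 2 groups, so none was tested through a single group alone. Judged by groups that did not overlap, 6 tested members were higher and 1 lower at P7 in brain (27.8% and 44.9% of all tested genes), and 1 was higher and 3 were lower at P7 in spinal cord (39.9% and 30.8%). For region at E13.5, brain was higher for 0 and lower for 4 (20.5% and 17.2%), and 6 were higher and 1 lower at P7 (12.3% and 49.4%). The separation of Tmem119 at P7 was thus shared by many tested genes. On TMM scaling (trimmed mean of M-values) the median over all tested genes was -0.01 for age in brain and 0.01 for region at P7, and the calls in these 2 comparisons were the same in number and direction.

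**Figure D1:**
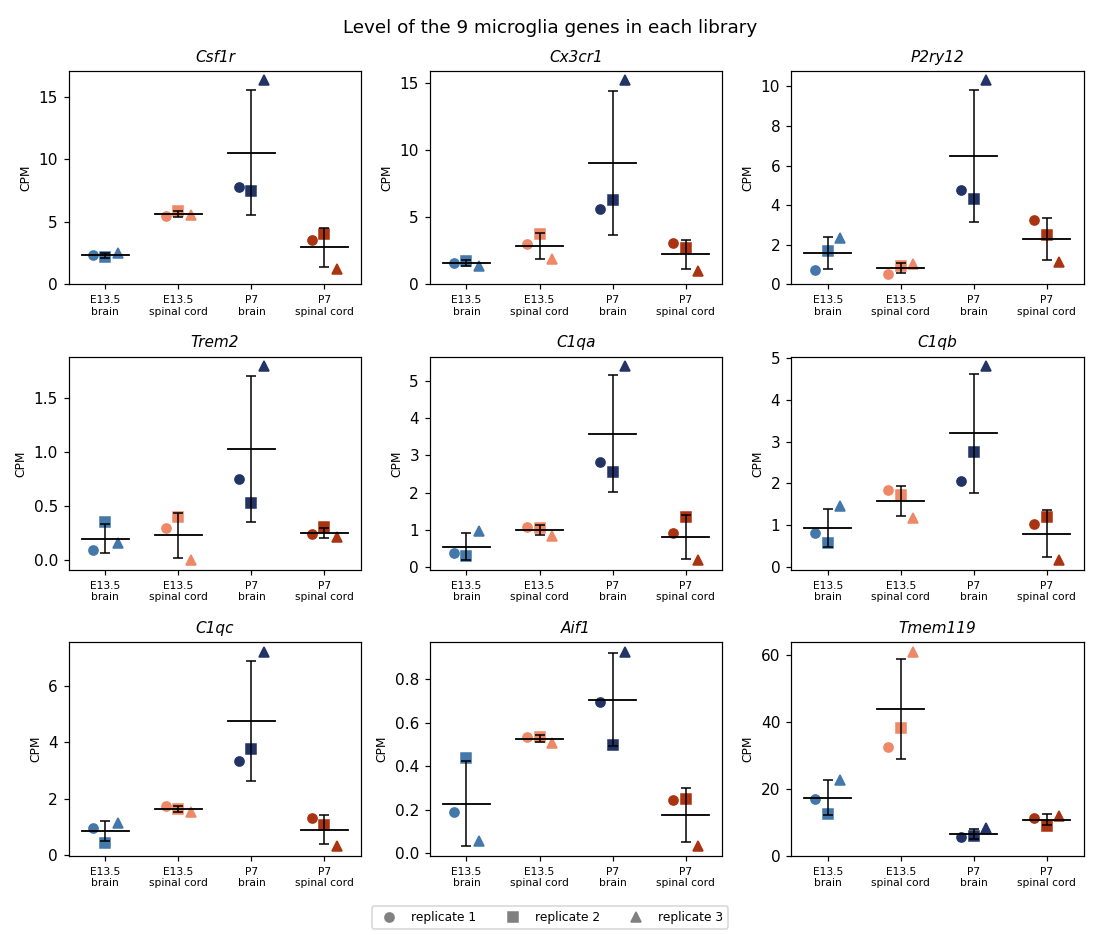
Level of each of the 9 members in each library, in CPM on a linear axis that differs between panels, with circles, squares and triangles for replicates 1, 2 and 3. Horizontal lines are group means and error bars are SDs (n = 3). In 8 panels P7 brain replicate 3 is the highest point, from 0.924 CPM for Aif1 to 16.3 CPM for Csf1r, whereas Tmem119 is highest in E13.5 spinal cord.

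Csf1r encodes the receptor tyrosine kinase for CSF1 and IL-34 on which microglia depend. Its level was 2.33, 2.15 and 2.52 CPM in the E13.5 brain libraries and 5.48, 5.91 and 5.57 CPM in the E13.5 spinal cord libraries. At P7 it was 7.81, 7.51 and 16.3 CPM in brain and 3.59, 4.07 and 1.21 CPM in spinal cord. The E13.5 groups were tight and did not overlap, all P7 brain libraries lay above every other library, and all P7 spinal cord libraries lay below the E13.5 ones of that region. Csf1r was higher by 1.88 ± 0.35 (SE) on the log2(CPM + 0.5) scale at P7 in brain (adjusted p = 0.000472). In spinal cord it differed by -0.95 ± 0.35 (adjusted p = 0.0265), short of a 2-fold change on the deposited scaling and past it on TMM scaling, at -1.01, and without P7 spinal cord replicate 1 or 2, at -1.14 and -1.22. The difference of brain from spinal cord was -1.12 at E13.5 and 1.71 at P7, and it therefore shifted by 2.83 ± 0.49 between the ages (adjusted p = 0.000763). The call for region at E13.5 was lost when any 1 of the 3 E13.5 brain libraries or of E13.5 spinal cord replicates 1 and 2 was left out, with differences of -1.07 to -1.17 and adjusted p of 0.053 to 0.0782.

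Cx3cr1 encodes the receptor for fractalkine, through which neurons signal to microglia. It had 1.62, 1.76 and 1.34 CPM in E13.5 brain and 2.98, 3.73 and 1.86 CPM in E13.5 spinal cord. P7 brain held 5.57, 6.25 and 15.2 CPM and P7 spinal cord 3.05, 2.68 and 1.02 CPM. The P7 brain libraries again lay above all others, while the spinal cord groups overlapped. The rise in brain was 2.06 ± 0.38 on the log2 scale (adjusted p = 0.000489), and the difference in spinal cord was -0.34 ± 0.38 (adjusted p = 0.45). Brain exceeded spinal cord by 1.74 ± 0.38 at P7 (adjusted p = 0.00495), against -0.66 ± 0.38 at E13.5 (adjusted p = 0.214), and the shift of 2.40 between these was itself called (adjusted p = 0.00409). The annotated span of Cx3cr1 runs through several other genes, such as Wdr48 at a mean of 71.6 CPM, but shares no exonic base with the protein-coding ones.

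P2ry12, the ADP receptor that steers microglial processes, was the only tested member called higher at P7 in both regions. It stood at 0.713, 1.67 and 2.36 CPM in E13.5 brain and at 0.536, 0.933 and 1.01 CPM in E13.5 spinal cord, which is the only region pair among the receptors where brain had the higher mean at E13.5. At P7 the values were 4.79, 4.33 and 10.3 CPM in brain and 3.24, 2.5 and 1.12 CPM in spinal cord. In both regions the lowest P7 library was above the highest E13.5 library, in spinal cord by 1.12 against 1.01 CPM. The increase was 1.73 ± 0.39 on the log2 scale in brain (adjusted p = 0.00217) and 1.00 ± 0.39 in spinal cord (adjusted p = 0.0375), where it only just passed 2-fold and lost its call on TMM scaling, at 0.96, and without any 1 of replicates 1 and 2 of either age in spinal cord, at 0.75 to 1.07. Between regions at P7 the difference was 1.31 ± 0.39 (adjusted p = 0.0252), and this call too was lost without P7 brain replicate 3, at 0.94, or without P7 spinal cord replicate 2 or 3, at 1.40 and 0.96. The shift of the region difference between the ages, 0.73 ± 0.56, was not called (adjusted p = 0.325). Its host gene Med12l was also higher at P7, with 87.9 ± 6.49 CPM in brain and 85.7 ± 4.68 CPM in spinal cord against 66.1 ± 3.58 and 52.9 ± 7.38 CPM at E13.5 (SD, n = 3), and its part in the P2ry12 values was not tested.

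Trem2, a lipid receptor that signals through the adaptor TYROBP, was barely detected and was not tested. In the 12 libraries it had 0 to 68 reads, and E13.5 spinal cord replicate 3 held 0, which allows a level of up to 0.506 CPM (counting error only, as for the other floors). Its P7 brain libraries had 0.757, 0.529 and 1.80 CPM and the other 9 libraries at most 0.400 CPM. P7 brain thus did not overlap the other groups. An edgeR quasi-likelihood fit without a filter, chosen after the data had been seen, gave a difference of 2.31 between P7 and E13.5 brain (adjusted p = 0.00249) and 2.0 between brain and spinal cord at P7 (adjusted p = 0.00795).

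C1qa, C1qb and C1qc encode the 3 chains of C1q, which are assembled in equal numbers, and the 3 genes had calls of the same direction in the same comparisons. C1qa was at 0.380, 0.307 and 0.965 CPM in E13.5 brain and at 2.82, 2.55 and 5.39 CPM in P7 brain. In spinal cord it was at 1.07, 1.07 and 0.844 CPM at E13.5 and at 0.918, 1.36 and 0.186 CPM at P7. At E13.5, 2 of the 3 brain libraries lay below all spinal cord libraries, and at P7 all 3 lay above them. The rise in brain was 1.95 ± 0.36 on the log2 scale (adjusted p = 0.000496).

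C1qb was at 0.808, 0.571 and 1.45 CPM in E13.5 brain and at 2.06, 2.74 and 4.81 CPM in P7 brain. In spinal cord it was at 1.85, 1.73 and 1.18 CPM at E13.5 and at 1.03, 1.2 and 0.155 CPM at P7. Its rise in brain was 1.34 ± 0.37 (adjusted p = 0.00757). The spinal cord groups of C1qb overlapped by a narrow margin.

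C1qc was at 0.950, 0.439 and 1.13 CPM in E13.5 brain and at 3.33, 3.77 and 7.21 CPM in P7 brain. In spinal cord it was at 1.73, 1.64 and 1.52 CPM at E13.5 and at 1.32, 1.08 and 0.310 CPM at P7. The spinal cord groups of C1qc did not overlap and its rise in brain was 1.94 ± 0.33 (adjusted p = 0.000256). At P7 brain exceeded spinal cord by 1.68 for C1qa, 1.56 for C1qb and 1.92 for C1qc on the log2 scale, with adjusted p of 0.00433, 0.00756 and 0.0011. None of the 3 chains was called for age in spinal cord, with differences of -0.29, -0.79 and -0.68 (C1qb passed without P7 spinal cord replicate 2, at -1.05), or for region at E13.5, with -0.56, -0.56 and -0.71.

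The ratio of C1qb to C1qa reads leaned towards C1qb at E13.5, with 1.40 to 2.12 in the 6 libraries, and was 0.731 to 1.12 in the 6 libraries of P7. These ratios rest on 5 to 39 reads of each gene at E13.5 and on 5 and 6 reads in P7 spinal cord replicate 3, and were not tested. The ratio of C1qc to C1qa ranged from 0.795 to 2.5 over the 12 libraries with no such order by age. Per kb of exon, the order of the members in P7 brain was C1qa (3.45 ± 1.51 CPM per kb), C1qb (2.94 ± 1.31), Tmem119 (2.86 ± 0.63), P2ry12 (2.54 ± 1.30), C1qc (2.47 ± 1.10), Cx3cr1 (2.0 ± 1.19), Csf1r (1.83 ± 0.87), Aif1 (0.461 ± 0.14) and Trem2 (0.208 ± 0.136), as mean ± SD with n = 3. The first 7 did not differ from their neighbours beyond the spread of the libraries.

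Aif1, which encodes the actin-binding protein IBA1, was also too low to be tested. It had 0.190, 0.439 and 0.0536 CPM in E13.5 brain, 0.536, 0.533 and 0.506 CPM in E13.5 spinal cord, 0.697, 0.496 and 0.924 CPM in P7 brain and 0.243, 0.247 and 0.0310 CPM in P7 spinal cord. Its highest library held 35 reads and its lowest 2 held 1 read each. In the unfiltered edgeR fit Aif1 was called higher at P7 in brain (1.57 on the log2 scale, adjusted p = 0.0323) and lower at P7 in spinal cord (-1.56, adjusted p = 0.0468).

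Tmem119, a transmembrane protein used to mark mature microglia, behaved unlike the other members. It had 16.9, 12.4 and 22.8 CPM in E13.5 brain and 32.7, 38.2 and 61.1 CPM in E13.5 spinal cord. At P7 it had 5.63, 5.95 and 8.29 CPM in brain and 11.5, 9.10 and 12.1 CPM in spinal cord. Every E13.5 library was above every P7 library and, at each age, every spinal cord library was above every brain library. It fell by 1.31 ± 0.25 on the log2 scale in brain (adjusted p = 0.000657) and by 1.92 ± 0.25 in spinal cord (adjusted p = 2e-05). Brain minus spinal cord was -1.30 ± 0.25 at E13.5 (adjusted p = 0.00174), and the shift of the region difference with age, 0.62 ± 0.36, was not called (adjusted p = 0.19). Without the E13.5 spinal cord library that stood apart, which had the highest value, the difference with age in spinal cord was -1.66 and the region difference at E13.5 was -1.04, and both calls held.

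Tmem119 was also far more abundant per kb than the other members at E13.5. In E13.5 spinal cord it had 19.0 ± 6.50 CPM per kb (SD, n = 3), above 88.9% of 14172 tested protein-coding genes, whereas the other 8 ranged from 0.0470 for Trem2 to 1.46 for C1qb, above 0.995% to 20.7% of them. In P7 brain, by contrast, it had 2.86 ± 0.63 CPM per kb, within the range of C1qa and C1qb. Of all members in all groups other than Tmem119, the highest place was that of C1qa in P7 brain, above 38.4% of the tested protein-coding genes.

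**Figure D2:**
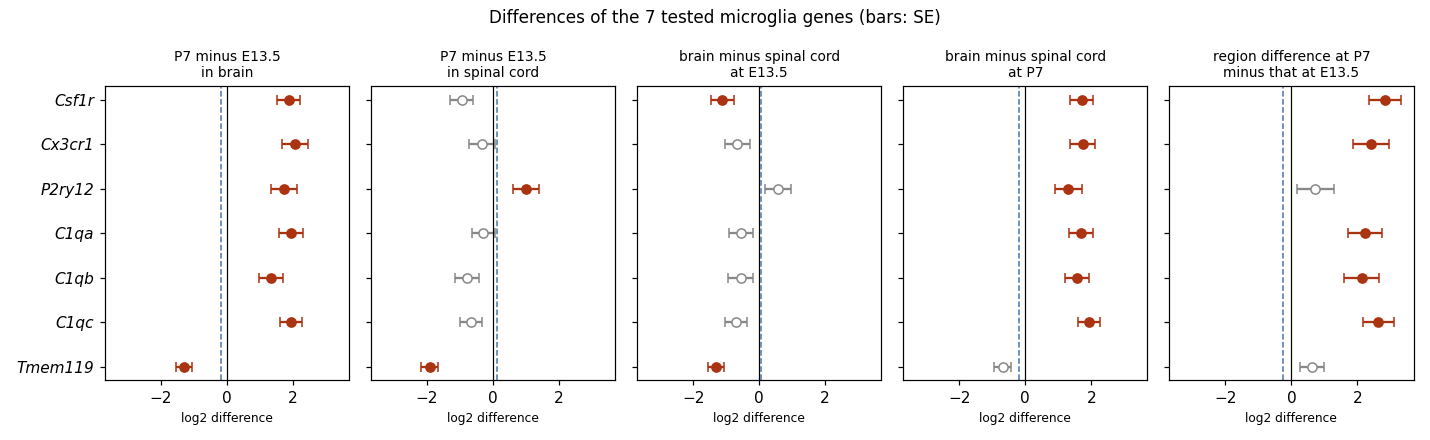
Log2 differences of the 7 tested members in the 5 comparisons, on the log2(CPM + 0.5) scale, with bars for the SE, filled points for calls and a dashed line at the median of all 18319 tested genes. The 6 genes other than Tmem119 are on the right of the line for age in brain and for region at P7, from 1.31 to 2.06, and Tmem119 is on the left in both.

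The region difference at P7 depended on the third library of each region. P7 brain replicate 3 had more of every member than the mean of replicates 1 and 2 on the log2 scale, by 0.38 for Aif1 to 1.29 for Cx3cr1, and 3 of the 7 tested members were over 2-fold above, against 0.595% of all tested genes above and 0.104% below. P7 spinal cord replicate 3 had less of every member but Tmem119, from -0.11 for Trem2 to -1.34 for Csf1r, and 6 of the 7 tested members were over 2-fold below, against 0.398% of all tested genes below and 0.562% above. Summed over the 8 members other than Tmem119, the P7 brain libraries held 27.8, 28.2 and 61.9 CPM and the P7 spinal cord libraries 13.6, 13.4 and 4.25 CPM. The regions did not overlap with replicate 3 or without it. Leaving out both replicate 3 libraries, an alternative added after the data had been seen, took the number of members called for region at P7 from 6 to 1, C1qc at 1.25 (adjusted p = 0.0087). The other 5 kept their direction, with differences of 0.59 for P2ry12 to 0.97 for C1qa. For age in brain and for the shift of the region difference, the counts of calls were the same without these libraries, 6 higher and 1 lower and 5 higher, with differences of 1.04 to 1.65 for the 6 genes that rose in brain.

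Other cell types differed between these pools as well. In P7 brain replicate 3 all 5 oligodendrocyte markers were over 2-fold above replicates 1 and 2, by up to 2.23 for Mobp, and their summed level was 3497 CPM against 1380 and 1378 CPM. In P7 spinal cord replicate 3 the same 5 markers were lower, with a median of -0.55. The medians of the astrocyte markers went in the directions of the members in both pools. They were 0.50 in P7 brain replicate 3 and -0.52 in P7 spinal cord replicate 3. Aqp4, the water channel of astrocytes, was at 0.56 and -1.52, but Gja1, another of these markers, was at 0.04 and 0.06. In P7 spinal cord replicate 3, 4 of 5 endothelial markers (Cldn5, Pecam1, Flt1 and Tie1) were over 2-fold below, at -1.03 to -1.46, while Cdh5 was 0.66 above. In the same library 4 matrix genes among the 6 pericyte and leptomeningeal markers, Col1a1, Col1a2, Lum and Dcn, were 0.86 to 1.35 above. Kcnj8 and Abcc9, the rest of that list, were at -0.07 and -0.21. The list had a summed level of 1264 CPM against 641 and 624 CPM. The 6 OPC markers had a median of -0.05 in the brain pool and 0.02 in the spinal cord pool, while Pdgfra itself was at -0.35 in the brain pool, where 4.56% of tested genes were lower, and at -0.08 in the spinal cord pool. The part of these other cell types in the microglia values was not tested.

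**Figure D3:**
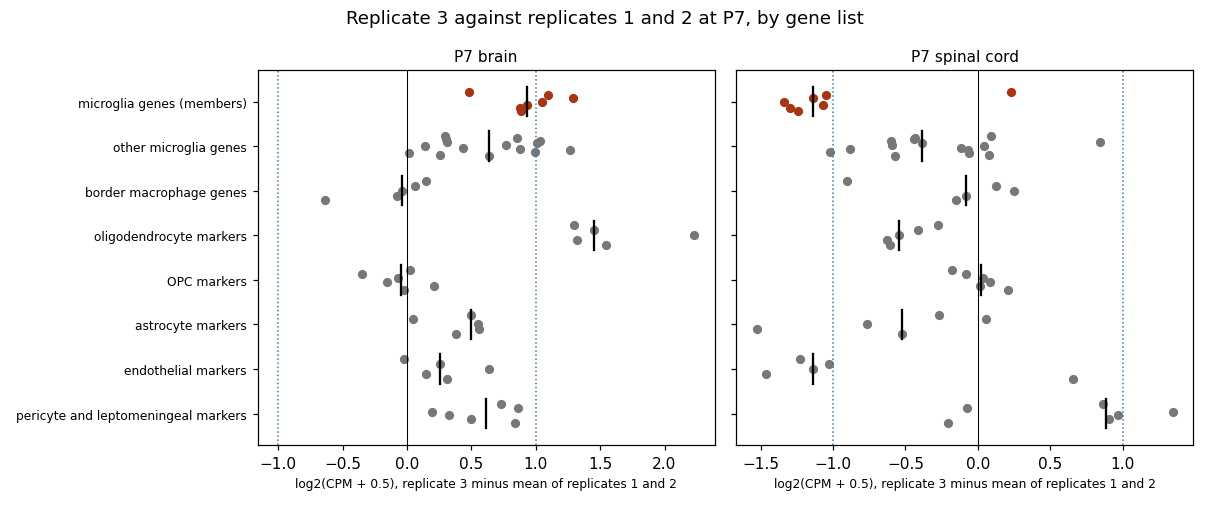
Difference on the log2(CPM + 0.5) scale between replicate 3 and the mean of replicates 1 and 2 at P7, for each tested gene of 8 lists, in brain and in spinal cord, with black bars at the list medians and dotted lines at 2-fold. The members have a median of 0.93 in brain and -1.14 in spinal cord, and the OPC markers have medians of -0.05 and 0.02, with Pdgfra at -0.35 in brain.

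The 8 members other than Tmem119 varied together over the 12 libraries. The 28 pairs among them had Pearson correlations of 0.41 to 0.96 with a median of 0.81 on log2(CPM + 0.5), and 0.25 to 0.96 with a median of 0.69 for deviations from the group means. C1qa and C1qc were the closest pair, at 0.96, and P2ry12 and Aif1 the most distant. The 8 pairs with Tmem119 had correlations of -0.73 to -0.09 over the 12 libraries. For deviations from the group means they had -0.40 to 0.38 with a median of 0.13, so the negative values reflect the group means. These 12 points share groups, pools and library depth, so the values are a description only. Within the sum of the 8, Csf1r made up 25.3% to 44.6% of the CPM, and P2ry12 took 3.7% to 8.11% in the E13.5 spinal cord libraries against 10.1% to 26.3% in the other 9.

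Among 13408 protein-coding genes with a mean of at least 1 CPM, the 10 most like the mean of the 9 members over the 12 libraries were Gpr34, Ctss, Laptm5, Fcrls, Mpeg1, Adgre1, Nckap1l, Ptk2b, Inpp5d and Slc5a5, with r from 0.84 to 0.95. Of these, Gpr34 is a lysophospholipid receptor, Ctss encodes the lysosomal protease cathepsin S, Mpeg1 a pore-forming protein of macrophages and Adgre1 the macrophage antigen F4/80. Gpr34 had 1.79, 2.18 and 4.04 CPM in P7 brain and 0.810, 0.617 and 0.155 CPM in P7 spinal cord, again with replicate 3 high in brain and low in spinal cord. Slc5a5, the sodium-iodide symporter, was like the members between groups only, since its correlation over deviations from the group means was 0.11 against 0.54 to 0.90 for the other 9. Likeness to Tmem119 alone, examined after the values had been seen, gave other genes. Rptor, Penk, Col8a2, Gja5, Faap100, Cbln1, H6pd, Tmem132a, Kcnj8 and Dennd2c led, with r of 0.97 to 0.99, among them Kcnj8, a potassium channel subunit of pericytes, and Col8a2, a collagen chain.

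The level of pericyte and leptomeningeal markers was examined beside Tmem119. Their 6 genes had correlations with Tmem119 over the 12 libraries from 0.74 to 0.97. Such values were not particular to this list. The complement gene Cd59a was at 0.93, the microglia gene Lag3 at 0.91, endothelial Cdh5 at 0.89 and neuronal Rbfox3 at 0.88. Other genes of those 4 lists were far lower, such as C1ra at -0.49, Laptm5 at -0.47, Cldn5 at 0.04 and Snap25 at -0.57. All 6 pericyte and leptomeningeal markers were called lower at P7 in spinal cord and 5 of 6 in brain. For region at E13.5, where Tmem119 was at -1.30, 3 of 6 were called lower in brain (Kcnj8, Col1a1 and Col1a2), Abcc9 at -0.62 and Dcn at -0.29 were not called, and Lum was at 0.75, in the other direction and not called. Their summed level was 2461 to 3532 CPM in E13.5 brain, 5108 to 5546 CPM in E13.5 spinal cord, 649 to 847 CPM in P7 brain and 624 to 1264 CPM in P7 spinal cord. Kcnj8 had 1.71, 0.791 and 1.82 CPM in E13.5 brain and 4.23, 4.09 and 7.42 CPM in E13.5 spinal cord, against at most 1.11 CPM in any P7 library. The part of these cells in the Tmem119 values was not tested.

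**Figure D4:**
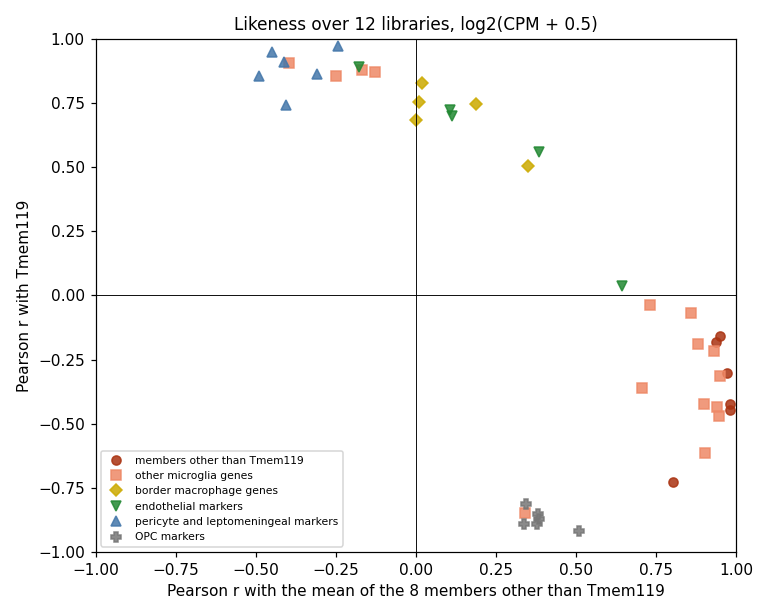
Pearson correlation of each tested gene of 6 lists with the mean of the 8 members other than Tmem119 (x axis) and with Tmem119 (y axis), over 12 libraries on log2(CPM + 0.5). The 6 tested members other than Tmem119 lie at the right, at 0.80 to 0.98 on the x axis, and the 6 pericyte and leptomeningeal markers lie at the top left, at 0.74 to 0.97 on the y axis.

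Of 20 other microglia genes, 15 were tested. In brain 8 of 15 were called higher at P7 and 1 lower, against 11% and 16.7% of all tested genes. Their median was 1.27 on the log2 scale, beside -0.19 over all tested genes. At P7, 7 of the 15 were called higher in brain than in spinal cord, against 2.27%, with a median of 1.00 beside -0.19. For an upward shift of the region difference 9 were called, against 6.66%. In spinal cord 1 was called higher at P7 and 5 lower, against 16.9% and 18.2%. At E13.5 2 were called lower in brain, against 5.17%. Among those with the highest levels were Olfml3, Cmtm6, Cd68 and Fcrls. Fcrls, an Fc receptor-like gene of microglia, had 3.27, 2.94 and 8.16 CPM in P7 brain and 0.771 to 1.05 CPM in P7 spinal cord, with calls in all 5 comparisons. Olfml3, a secreted matrix protein, had 84.1, 85.2 and 114 CPM in E13.5 spinal cord and 17.2 to 36.2 CPM in the other 9 libraries, and r with Tmem119 of 0.87. Cmtm6, a membrane protein that many cells make, had group means of 17.7 to 67.2 CPM and rose with age by 1.27 in brain and by 1.90 in spinal cord. Cd68, a lysosomal glycoprotein, differed by -1.06 with age in spinal cord.

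Macrophages of the meninges and perivascular spaces share Csf1r, Cx3cr1 and the C1q genes with microglia, and their own markers were measured beside the members. Of 8 border macrophage genes 5 were tested, Stab1, Mrc1, F13a1, Lyve1 and Pf4. All 5 were called lower at P7 than at E13.5 in spinal cord, against 18.2% of all tested genes, with a median of -3.00 on the log2 scale. All 5 were also called lower in brain than in spinal cord at E13.5, against 5.17%, with a median of -2.12. In brain 1 of 5, Mrc1, rose with age, and at P7 Mrc1 and Stab1 were called higher in brain than in spinal cord, by 2.19 and 1.24. All 5 were called for an upward shift of the region difference with age. This was 4.33 for Mrc1, 3.39 for Stab1, 2.71 for F13a1, 2.51 for Lyve1 and 2.07 for Pf4. An upward shift was also called in 5 of the 7 tested members, 3 of 5 neuron, 3 of 5 astrocyte and 2 of 5 endothelial markers. Mrc1, the mannose receptor, had 13.9, 9.07 and 9.62 CPM in E13.5 spinal cord, 3.80, 0.922 and 2.15 CPM in E13.5 brain, 4.91, 4.33 and 4.46 CPM in P7 brain and 0.540, 0.555 and 0.745 CPM in P7 spinal cord. The summed level of the 8 genes ranged from 34.4 to 46.7 CPM over the E13.5 spinal cord libraries and from 10.9 to 11.5 CPM in P7 brain, where replicate 3 lay between replicates 1 and 2. In P7 spinal cord it was 2.05 to 3.29 CPM, and Pf4 was at 0 in replicate 1. The part of border macrophages in the values of the members, and in the shift of their region difference, was not tested.

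**Figure D5:**
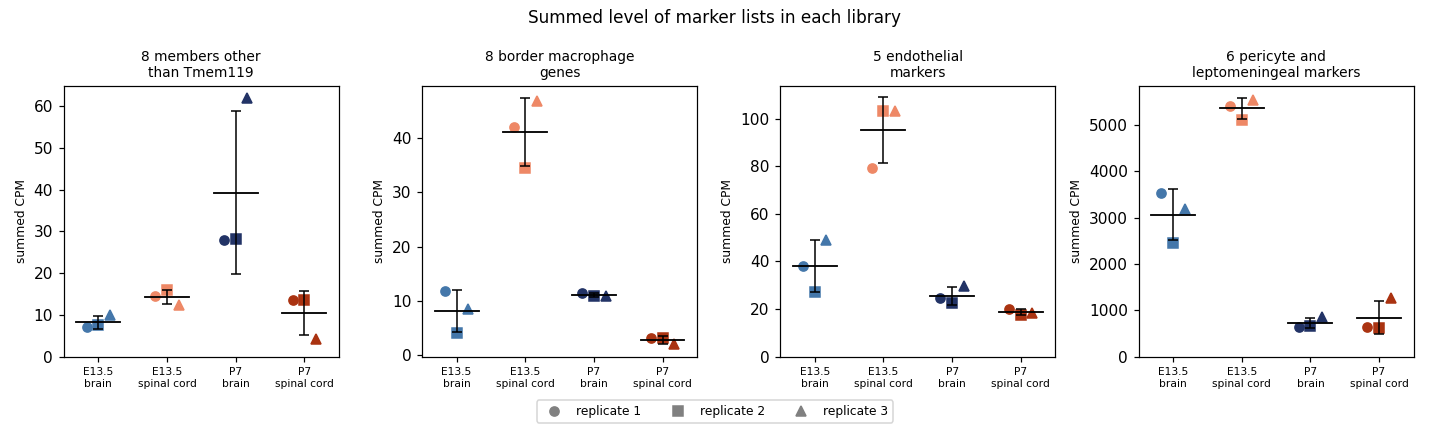
Summed CPM per library of the 8 members other than Tmem119, of 8 border macrophage genes, of 5 endothelial markers and of 6 pericyte and leptomeningeal markers, with group means and SDs (n = 3) on linear axes. The members peak in P7 brain replicate 3 at 61.9 CPM, and the other 3 lists are highest in E13.5 spinal cord.

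Markers of further cell types were examined for the same reason. The 5 endothelial markers summed to 79.4 to 103 CPM in E13.5 spinal cord and to at most 49.0 CPM in each other library, and 4 of 5 fell with age in spinal cord. Of 6 lymphocyte and granulocyte genes none passed the filter, Cd3e was at 0 in all 12 libraries, and the list summed to at most 4.17 CPM, in an E13.5 spinal cord library. Embryonic globin Hbb-y was at a mean of 35.0 CPM in E13.5 brain and 46.1 CPM in E13.5 spinal cord and had 0 reads in every P7 library. The erythroid list summed to 7.01 to 13 CPM in P7 brain against 1.80 to 3.35 CPM in P7 spinal cord, a difference in the same direction as that of the members, and its part in their values was not tested.

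The genes that act on or next to the members were measured in the same libraries, 8 of 10 with enough reads for a test. Il34, a ligand of CSF1R, had 0.903, 0.966 and 1.56 CPM in E13.5 brain, 3.99, 4.22 and 5.06 CPM in E13.5 spinal cord, 5.94, 6.98 and 8.71 CPM in P7 brain and 1.62, 1.36 and 3.78 CPM in P7 spinal cord. It rose with age in brain by 2.24 ± 0.28 (adjusted p = 2.18e-05) and was higher in brain than in spinal cord at P7 by 1.57. In P7 spinal cord replicate 3, however, Il34 was 1.11 above replicates 1 and 2, where Csf1r was at -1.34. Csf1, the other ligand, was far more abundant, at group means of 26.7 to 48.8 CPM, and was called in no comparison. Its difference of brain from spinal cord at P7 was -0.88 (adjusted p = 0.00144), short of a 2-fold change and opposite in direction to that of Il34. Cx3cl1, which encodes fractalkine, the ligand of CX3CR1, rose with age in both regions, by 2.20 on the log2 scale in brain, where its mean was 10.1 CPM at E13.5 and 46.5 CPM at P7, and by 3.57 in spinal cord, where the means were 5.81 and 74.2 CPM. Thus in spinal cord the fractalkine gene rose while its receptor gene was not called.

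Signalling partners of the receptors were split. Tyrobp, the adaptor of TREM2, had 1.06, 0.893 and 2.46 CPM in P7 brain against 0.370 to 0.486 CPM in P7 spinal cord and was called for region at P7, at 1.03 (adjusted p = 0.0207), and for the shift with age, at 1.66. Inpp5d, the phosphatase SHIP1, rose in brain by 1.27 and fell by 1.21 in spinal cord. Plcg2, a phospholipase that acts after TREM2, went another way, with means of 25.9 CPM in P7 spinal cord and 11 CPM in P7 brain against 0.80 and 1.67 CPM at E13.5, and had a region difference of -1.28 at P7. Syk fell by 1.66 in spinal cord and Fcer1g was called in no comparison. Hcst and Vav1 did not pass the filter.

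Of 10 myeloid transcription factors, 8 were tested. For age in brain 1 was called higher (Cebpa, at 1.02) and 2 lower (Maf at -1.04 and Runx1 at -1.27). Of all tested genes 11% were called higher and 16.7% lower there. For region at P7 2 were called higher, Maf at 1.13 and Mef2c at 2.95, against 2.27% of all tested genes. Maf, Sall1 and Mef2c, which were among the highest, are also used by other cells of the nervous system, and Sall1 was called in no comparison. Spi1, which encodes PU.1, did not pass the filter. It had 0.363, 0.298 and 0.845 CPM in P7 brain and 0.135, 0.123 and 0 CPM in P7 spinal cord.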

How the data were processed

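The processed table held 12 libraries and no other columns of values (0 not used), and groups and replicate numbers came from the sample labels. The authors aligned stranded total RNA reads with STAR 2.5.0a to mm10 and counted GENCODE M8 genes with featureCounts 1.5.0-p1, sharing reads with several positions among these and rounding the sums. The authors then deposited CPM, that is counts divided by library sizes they had rescaled. In 3 columns these sum to more than unscaled CPM would, and they were handled as a deposited signal on the same scale. All values were whole multiples of 1 read (100.0% within 0.01 reads), so the reads were recovered from the CPM.

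The 18319 genes that reached 0.7 CPM in 3 libraries or more were fitted with limma 3.58.1 in R 4.3.3, with an intensity trend on log2(CPM + 0.5) and 1 mean per group. The study used limma with voom, which is an alternative here because the unit is CPM. Fold changes on this scale are understated for low genes. P-values were two-sided and adjusted over all tested genes by the Benjamini-Hochberg method, and 5 contrasts were drawn. Alternatives were edgeR 4.0.16 (quasi-likelihood) and DESeq2 1.42.0 on the recovered reads, voom, TMM and median-ratio scaling, pseudocounts of 0.1 and 1, no filter, no fold requirement, a replicate block, and each library left out. An unfiltered edgeR fit and a fit without both P7 replicate 3 libraries were added after the data had been seen, as was likeness to Tmem119 alone. The fits were tested on simulated data.

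The members, the 14 other gene lists and the tests were chosen with earlier results of these data known. All members are named, as are up to 5 genes with the highest mean CPM of each other list, all ligands and partners, and the 10 genes most like the mean of the members. Some genes that this rule takes are not reported here. Genes of small counts were named in addition, after their values had been seen. Symbols came from GENCODE M21 on the same build and were found for 46488 of 47069 identifiers. The libraries held 12566345 to 38790312 recovered reads. PCR copies of a molecule are counted more than once, so floors of 3 reads cover counting error only.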

Additional observations from a re-analysis of the deposited data

Results flagged for a closer look

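For 5 of the 7 tested members the difference between brain and spinal cord was not the same at P7 as at E13.5, by the test of the change itself (limma, adjusted over all tested genes). Of all tested genes, 6.66% were called higher and 9.66% lower for this change. The change, brain minus spinal cord at P7 less that at E13.5 on the log2(CPM + 0.5) scale, was 2.83 ± 0.49 (SE) for Csf1r (adjusted p = 0.000763), 2.63 ± 0.47 for C1qc (adjusted p = 0.00094), 2.40 ± 0.54 for Cx3cr1 (adjusted p = 0.00409), 2.24 ± 0.51 for C1qa (adjusted p = 0.00444) and 2.13 ± 0.53 for C1qb (adjusted p = 0.00687). In each of the 5 the 3 P7 brain libraries lay above the 3 P7 spinal cord libraries, and the mean of E13.5 brain lay below that of E13.5 spinal cord. Without both P7 replicate 3 libraries the changes were 2.04, 1.96, 1.59, 1.53 and 1.40 in the same order, with adjusted p up to 0.0204. The same upward change was called in genes that are not members. It was 2.07 to 4.33 in all 5 tested border macrophage genes, whose cells share Csf1r, Cx3cr1 and the C1q genes with microglia. An upward change was also called in 3 of 5 neuron, 3 of 5 astrocyte and 2 of 5 endothelial markers. A downward one was called in 5 of 6 OPC and 5 of 5 oligodendrocyte markers. The part of these cell types in the change was not tested. The order of the 5 members depends on the scale, with 3.38 for C1qc and 3.12 for Csf1r by the unfiltered edgeR fit.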

How the results depend on the processing

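The counts of members called for age in brain (7) and for the shift of the region difference (5) were within 1.5 times under every alternative run, and so were the summed levels of the 9 members within their SD. For age in spinal cord the count of 2 became 1 with a pseudocount of 1 and 1 with no filter, and 1 to 3 when single libraries were left out. For region at E13.5 the count of 2 became 1 with a pseudocount of 1, 1 with no filter and 1 with voom, and 1 to 2 when single libraries were left out, each time by the loss of Csf1r. For region at P7 the count of 6 became 1 without both P7 replicate 3 libraries, and 5 with P7 replicates 1 and 2 averaged into 1. In spinal cord the difference with age changed sign for C1qa (-0.60 to 0.12 when single libraries were left out, 0.12 without both P7 replicate 3 libraries) and for Cx3cr1 (-0.57 to 0.044, and 0.044), neither of which was called. The cause of these changes was not tested, other than fewer samples where libraries were left out. Among the values for single members under the alternatives, 832 kept their direction and side of the threshold, 30 lost a call, 9 gained one and 4 changed sign.

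Whether replicate numbers pair the libraries is not stated in the sources used here and could not be decided. The correlation of deviations from the group means between a brain library and the spinal cord library numbered alike was 0.31, 0.08 and 0.41 at E13.5 and 0.01, 0.02 and 0.04 at P7. At E13.5, brain replicates 1 and 3 correlated best with their own number, and replicate 2 did not. Deviations from a mean of 3 libraries depend on each other, so these values neither show nor exclude a shared litter or batch. The main fit treated the libraries as unpaired. A fit with a replicate block gave counts that were the same in all 5 comparisons. With a replicate block within each age, the count was 6 for age in brain, where C1qb at 1.24 was not called (adjusted p = 0.11), and 1 for region at E13.5, and the other 3 were the same. At 5 to 39 reads per library, the E13.5 values of the C1q genes are limited by low counts. So are those of P7 spinal cord replicate 3, with 6, 5 and 10 reads of C1qa, C1qb and C1qc.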

Other observations

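Complement genes outside C1q act upstream or downstream of it or hold it in check. Of 12 such genes 9 were tested. For age in brain 1 was called higher and 1 lower, beside 11% and 16.7% of all tested genes. Their median was -0.19 on the log2 scale, as over all tested genes. For region at P7, 3 were called higher in brain, against 2.27% of all tested genes, with a median of 0.15 beside -0.19. C4b, a component cleaved after C1q is activated, rose in both regions, from at most 0.506 CPM in any E13.5 library to 5.69, 5.52 and 9.72 CPM in P7 brain and 2.46, 2.53 and 4.75 CPM in P7 spinal cord. Serping1, the inhibitor of the C1 proteases, fell in both regions, by 1.33 in brain and by 1.64 in spinal cord. In P7 spinal cord replicate 3, where the C1q genes were lowest, C1ra, C1s1 and Serping1 were over 2-fold above replicates 1 and 2, at 1.07, 1.75 and 1.22.

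Genes of axon tract-associated microglia, a state of the early postnatal white matter, were tested for 4 of 8, Igf1, Lpl, Spp1 and Gpnmb, while Clec7a, Itgax, Cst7 and Lgals3 had group means of at most 0.32 CPM. Gpnmb rose in brain by 1.45 and was higher in brain than in spinal cord at P7 by 1.35. Igf1, a growth factor that many cells make, fell with age in both regions. Spp1, osteopontin, had higher means in brain at both ages, 5.46 against 0.39 CPM at E13.5 and 2.99 against 0.74 CPM at P7. Astrocyte markers were called higher at P7 in 4 of 5 genes in brain and 3 of 5 in spinal cord, with 1 lower in each, and neuron markers lower in 2 of 5 and 4 of 5.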
